A study of Mus musculus with 4 samples.

Results

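The 10 genes described here are imprinted, that is, transcribed mainly from the copy inherited from 1 parent, and each lies outside the Dlk1 cluster: Cdkn1c, Grb10, H19, Plagl1, Peg3, Zim1, Ndn, Magel2, Mest and Peg10. They were chosen by symbol, and all 10 were found among the 55416 features of the gene tables. H19, Cdkn1c, Peg3, Zim1, Ndn and Magel2 lie on chromosome 7, Mest and Peg10 on chromosome 6, Plagl1 on chromosome 10 and Grb10 on chromosome 11. The cells came from the femoral epiphysis, the cartilaginous end of the thigh bone, of wild-type mice at postnatal days 7, 8, 10 and 12. Each day is 1 droplet-based 3′ single-cell library, and every day had the same genotype and no treatment. The labels do not say how many animals went into a library. The digestion step of the labels' protocol names bowel cancer tissue, so whether it was the step used on the epiphysis is not known.

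Imprinted genes are known for a balance over growth: many maternally expressed members restrain it, and many paternally expressed members favour it. In young mammals a group of these genes is known to decline in level after birth as body growth slows. In the epiphysis, chondrocytes pass through resting, dividing and hypertrophic stages that lengthen the bone, and Cdkn1c in particular is known in mice for its role in the exit of chondrocytes from division. Unique molecular identifiers (UMIs), which count captured transcripts, were not split by parental allele, so all values below are sums over both copies.

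After filters 49055 cells remained, between 10028 and 16254 per library. Median depth was 3103 UMIs per cell on day 7, 3168.5 on day 8, 7706.5 on day 10 and 6563.5 on day 12. All of them were grouped into 31 clusters with the 10 genes left out of the clustering, and clusters were named only where a fixed marker list fitted, hence "chondrocyte-like". The chondrocyte-like class held 9022 cells on day 7, 5665 on day 8, 128 on day 10 and 1459 on day 12, with UMIs of all 15 chondrocyte markers in every library. Its make-up differed between days: cluster 9, led by Cbln2, Ihh, Col10a1 and Panx3, held 0.355% of the class on day 7, 1.15% on day 8, 66.4% on day 10 and 80.2% on day 12. Transcripts of dissociation-stress genes summed to 13054, 13906, 7139 and 6271 CPM (UMIs of a gene scaled to the total UMIs of the summed cells) in the class on days 7, 8, 10 and 12. Between 72 and 282 cell barcodes were shared by any pair of libraries. In all blood classes together, which should lack cartilage transcripts, the chondrocyte markers still summed to 9756, 8466, 1474 and 8475 CPM on days 7, 8, 10 and 12. A low level of a gene in a class that does not express it is therefore read as background.

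Start regions of 5 of the genes are shown because Peg3 and Plagl1 had the most alike levels across cell classes, Zim1 is the neighbour of Peg3, and Ndn and Magel2 are neighbours on chromosome 7 whose day 12 to day 7 ratios in chondrocyte-like cells differed. Each runs 5′ to 3′ over 250 bases before and 50 after the RefSeq gene start in build GRCm38.p6, with every CG in capitals. The windows are chr7:6730370-6730669 on the minus strand for Peg3, chr10:13090582-13090881 on the plus strand for Plagl1, chr7:6696383-6696682 on the minus strand for Zim1, chr7:62348027-62348326 on the plus strand for Ndn and chr7:62376729-62377028 on the plus strand for Magel2.
Peg3: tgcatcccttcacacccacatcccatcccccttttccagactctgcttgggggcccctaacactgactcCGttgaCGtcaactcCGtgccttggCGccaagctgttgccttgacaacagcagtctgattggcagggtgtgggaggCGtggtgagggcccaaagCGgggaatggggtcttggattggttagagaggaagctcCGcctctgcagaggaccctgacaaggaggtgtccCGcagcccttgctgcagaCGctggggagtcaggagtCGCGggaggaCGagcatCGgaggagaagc
Plagl1: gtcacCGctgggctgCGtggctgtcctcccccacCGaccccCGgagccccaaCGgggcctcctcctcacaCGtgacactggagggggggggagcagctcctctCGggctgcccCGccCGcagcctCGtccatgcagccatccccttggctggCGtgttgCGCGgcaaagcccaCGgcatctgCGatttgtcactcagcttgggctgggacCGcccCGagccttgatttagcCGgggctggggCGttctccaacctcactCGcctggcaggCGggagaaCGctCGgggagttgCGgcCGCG
Zim1: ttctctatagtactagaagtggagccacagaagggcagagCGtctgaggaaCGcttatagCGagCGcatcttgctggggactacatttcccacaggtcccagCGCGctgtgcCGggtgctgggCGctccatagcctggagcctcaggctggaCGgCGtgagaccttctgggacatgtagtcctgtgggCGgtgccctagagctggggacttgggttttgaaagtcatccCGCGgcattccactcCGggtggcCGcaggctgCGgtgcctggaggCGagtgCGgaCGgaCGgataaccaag
Ndn: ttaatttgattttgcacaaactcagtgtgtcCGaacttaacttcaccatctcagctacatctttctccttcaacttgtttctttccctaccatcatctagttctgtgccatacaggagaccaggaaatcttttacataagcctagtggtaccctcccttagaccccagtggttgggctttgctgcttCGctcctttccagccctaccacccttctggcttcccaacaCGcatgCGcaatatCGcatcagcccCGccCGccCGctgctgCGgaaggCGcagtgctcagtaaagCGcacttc
Magel2: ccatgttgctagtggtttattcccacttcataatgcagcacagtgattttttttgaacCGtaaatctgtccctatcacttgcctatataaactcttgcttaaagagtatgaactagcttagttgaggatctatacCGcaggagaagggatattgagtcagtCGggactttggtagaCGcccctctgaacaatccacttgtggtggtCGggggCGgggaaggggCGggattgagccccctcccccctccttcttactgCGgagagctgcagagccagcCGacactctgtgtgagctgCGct
The windows held 13 CG in Peg3, 26 in Plagl1, 20 in Zim1, 11 in Ndn and 10 in Magel2, against a median of 7 over 32851 mouse promoters of the same length. The letters GGGCGG, searched on both strands, occurred at 2 places in Plagl1, 2 in Ndn, 2 in Magel2 and 1 in Zim1, and in 35.7% of all promoters. TATAAA occurred once, in Magel2, and in 13.6% of all promoters, and AAGATGG, in 6.34% of promoters, was in none of the 5.

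A pair of the genes also hold microRNA hairpins within the gene. H19 is the host of miR-675 and Mest the host of miR-335. The mature forms, from RefSeq in build GRCm38.p6 with the seed (bases 2 to 8) in capitals, show 4 different seeds.
mmu-miR-675-5p: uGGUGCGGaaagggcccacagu
mmu-miR-675-3p: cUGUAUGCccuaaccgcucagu
mmu-miR-335-5p: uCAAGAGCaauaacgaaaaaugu
mmu-miR-335-3p: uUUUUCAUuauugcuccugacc
The features of both hairpin genes had 0 UMIs, so no UMI assigned to them enters the H19 and Mest values below.

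Levels are given first by day in chondrocyte-like cells. With 1 library per day there is no test between days: each value carries an exact Poisson 95% interval, which covers counting error only, and differences are described by a 1.5-fold rule with 1 UMI added to each sum. Between day 12 and day 7, 4 of the 10 genes passed that rule: Magel2 and Grb10 were higher on day 12, and Mest and Zim1 were lower. Of all 17602 genes with at least 20 UMIs, 61.5% passed it (30.1% higher and 31.4% lower) and the count for the imprinted genes is below that background. Their median log2 ratio was -0.19, against 0.07 for all genes.

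**Figure D1:**
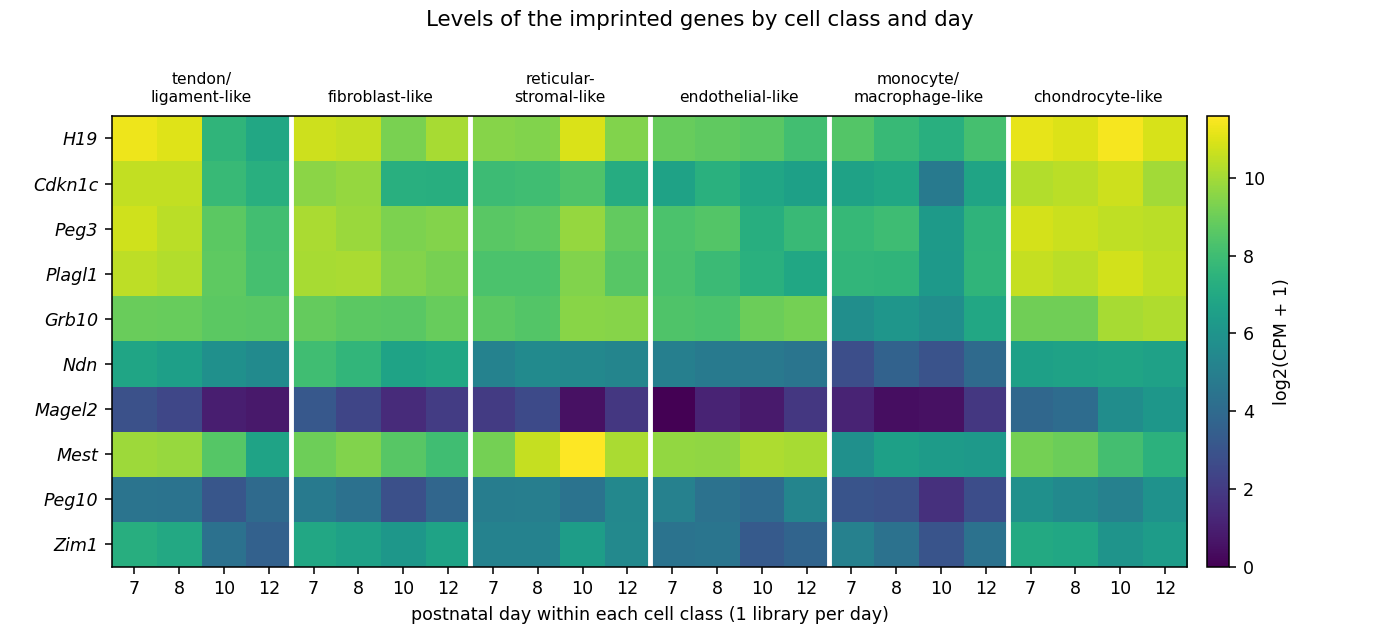
Level of each gene (rows) in each cell class and day (columns), as log2(CPM + 1) of the UMIs summed per class and library; brighter cells are higher, and values are to be compared along a row, not between genes. Chondrocyte-like columns are among the highest for Cdkn1c, Peg3, Plagl1 and Magel2, whereas Mest is highest in the reticular stromal-like column of day 10, at 3095 CPM.

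Among the genes known to restrain growth, Grb10 was past 1.5-fold higher on day 12 than on day 7 in chondrocyte-like cells, and Cdkn1c was not past it in either direction. Grb10 encodes an adaptor that binds the insulin and IGF1 receptors and dampens their signal. Its level in chondrocyte-like cells was 536 CPM (528 to 544) on day 7, 537 (527 to 546) on day 8, 1086 (1051 to 1121) on day 10 and 1199.5 (1186 to 1213) on day 12. The values form a low pair of days and a high pair of days with no overlap of intervals, and day 12 was 2.24-fold above day 7. After thinning each cell to 1000 UMIs, 37.6%, 37.8%, 66.4% and 65.3% of chondrocyte-like cells had a Grb10 UMI on days 7, 8, 10 and 12, while 8.30%, 7.50%, 4.99% and 9.47% of blood cells did. Unthinned, the chondrocyte-like shares were 69.95%, 74.6%, 96.9% and 96.3%, at median depths of 3112.5, 3403, 23364 and 14703 UMIs, and blood cells had median depths of 4439, 4398, 7852 and 4405 UMIs.

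Inside clusters the Grb10 difference had the same direction but was smaller, and 1 of 3 clusters did not pass the rule. Clusters 2, 4 and 6 had 40 cells or more on day 12 as well as day 7, a limit set after seeing the data. Their Grb10 log2 ratios, day 12 over day 7, were 0.52, 0.59 and 0.70, or 1.44-, 1.51- and 1.63-fold, so cluster 2 was under 1.5-fold and cluster 4 just past it. Cluster 9 itself held 751 CPM on day 8, 1097 on day 10 and 1226 on day 12. The whole class had 1.16. Grb10 was also past 1.5-fold on day 12 in endothelial-like cells (575 CPM on day 12, 342 on day 7) and in reticular stromal-like cells (724 on day 12, 413 on day 7). In fibroblast-like cells it was 485 CPM on day 12 and 458 on day 7, with a ratio of 1.05. Tendon- or ligament-like cells had 395 CPM on day 12 and 491 on day 7, a ratio of 0.80. Monocyte- or macrophage-like cells, a blood class, were 2.30-fold higher on day 12, at low levels of 121 CPM on day 12 and 51.5 on day 7.

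Cdkn1c encodes p57Kip2, an inhibitor of cyclin-dependent kinases. In the class it measured 1242 CPM (1230 to 1254) on day 7, 1359 on day 8, 1666 (1624 to 1710) on day 10 and 1022 (1009 to 1035) on day 12. The course was highest on day 10 and the day 12 to day 7 ratio was 0.823, within 1.5-fold. Beneath this, clusters differed widely.

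Cluster 7, led by Fxyd2 and Ihh, had 2959 CPM of Cdkn1c on day 7 and 3103 on day 8. Clusters 0, 2, 4 and 6 lay between 910 and 1333 CPM on those days. Ihh marks prehypertrophic chondrocytes, and cluster 9, which shares it, had 2268 CPM on day 8, 1945 on day 10 and 1077 on day 12. Within clusters the day 12 level was below day 7 in all 3 that could be compared: 419 against 1137 CPM in cluster 2, 630 against 937 in cluster 4 and 649 against 1142 in cluster 6. The class ratio of -0.28 (log2) therefore stands beside within-cluster ratios of -1.44, -0.57 and -0.81.

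H19 is a maternally expressed noncoding RNA next to the growth factor gene Igf2. Igf2 itself had 0 UMIs in all cells. The only feature annotated over it on the same strand that had any, Gm49394, had 3, so this neighbour pair could not be compared. Chondrocyte-like H19 was 2285 CPM on day 7, 2055 on day 8, 2757 on day 10 and 1884 on day 12. Its day 12 to day 7 ratio of 0.824 was within 1.5-fold. Clusters did not share that direction: H19 was 1.66-fold higher on day 12 (interval 1.59 to 1.73) in cluster 4, past the rule, 1.14-fold higher in cluster 2 and near level in cluster 6 (ratio 0.956). By cluster it was lowest in cluster 7, at 1428 CPM on day 7 and 1204 on day 8, where Cdkn1c was highest.

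**Figure D2:**
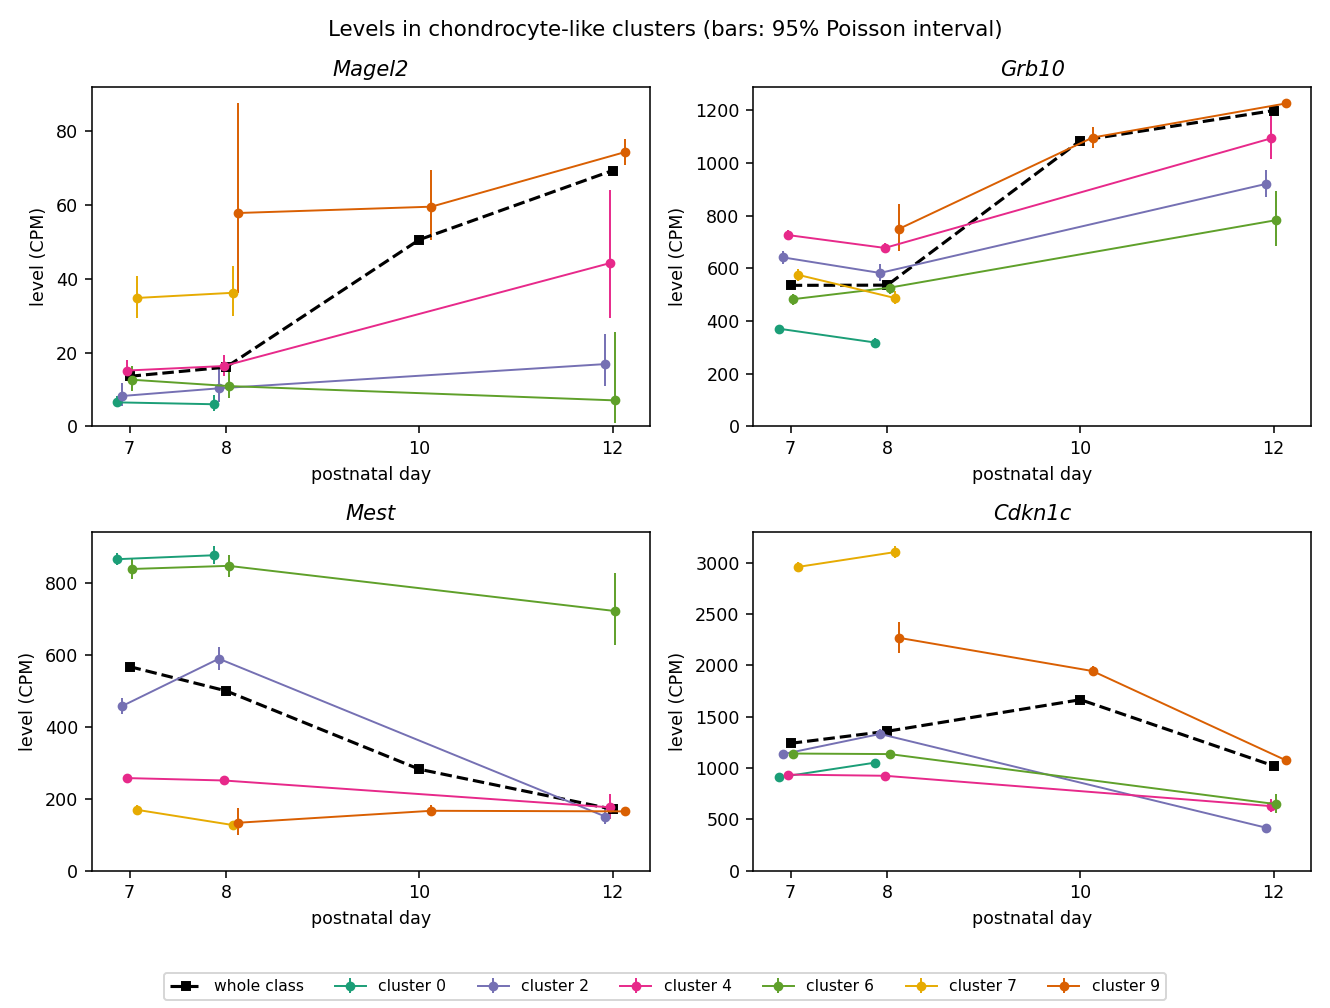
Levels (CPM, vertical axes) of Magel2, Grb10, Mest and Cdkn1c by postnatal day (horizontal axes) in the chondrocyte-like clusters with at least 40 cells (coloured points with exact Poisson 95% intervals) and in the whole class (black dashed line). Grb10 is higher on day 12 in each cluster present on both days, while Mest is high in clusters 0 and 6 and low in clusters 7 and 9 on every day shown.

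Plagl1, Peg3 and Zim1 encode zinc finger proteins, of which Plagl1 is known in mice as a transcription factor acting on other imprinted genes. Plagl1 measured 1537 CPM on day 7, 1359 on day 8, 1794 on day 10 and 1440.3 on day 12 in chondrocyte-like cells. Peg3 was at 1864, 1650, 1416 and 1365 CPM on days 7, 8, 10 and 12, each value below the one before, with a day 12 to day 7 ratio of 0.732. Zim1, the maternally expressed neighbour of Peg3, was at 132 CPM (128 to 136) on day 7, 119 on day 8, 63.7 on day 10 and 84.3 (80.7 to 88.0) on day 12.

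Zim1 passed the rule at 1.56-fold lower on day 12, close to the limit, whereas Plagl1 (ratio 0.937) and Peg3 did not. In cluster 2 alone Plagl1 was 1004 CPM on day 12 and 1508 on day 7, just past the rule with a log2 ratio of -0.59. Within clusters 2, 4 and 6 the Zim1 log2 ratios were -0.39, -0.48 and -0.35, none past 1.5-fold. With clusters 3, 5, 8 and 18 added to the class, Zim1 had a log2 ratio of -0.26. These unnamed clusters were added because their chondrocyte markers were at least 2-fold above the median of the other named classes, but at most 13.3% of the markers met the naming rule in any of them. Cluster 8, of 960 cells on day 12 and 7 on day 7, was led by hemoglobin genes with neutrophil genes among its first 10, and cluster 18 grew to 2124 cells on day 12, against 38 on day 7. Scaled by TMM, which lowered every day 12 to day 7 log2 ratio in the class by 0.18, Peg3 passed the rule at -0.63.

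Ndn and Magel2 belong to the MAGE family, lie close together on chromosome 7 and are both expressed from the paternal copy. Magel2 protein is known to act with TRIM27 and USP7 on the WASH complex in endosomal sorting. Ndn was nearly level in chondrocyte-like cells, at 96.2 CPM on day 7, 101 on day 8, 107 on day 10 and 98.3 on day 12, with overlapping intervals on days 12 (94.4 to 102) and 7 (92.9 to 99.6). Magel2 was 13.6 CPM (12.4 to 14.9) on day 7, 16.1 (14.5 to 17.8) on day 8, 50.5 (43.3 to 58.6) on day 10 and 69.2 (66.0 to 72.6) on day 12. Its ratio of day 12 to day 7 was 5.09 and that of Ndn was 1.02.

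Magel2 was sparse: thinned to 1000 UMIs, 0.953%, 1.02%, 3.12% and 5.83% of chondrocyte-like cells had a UMI on days 7, 8, 10 and 12 (3.79%, 5.12%, 42.2% and 39.6% unthinned). Blood cells had one in at most 0.415% of cells on any day after thinning. Its level followed clusters. Cluster 9 had 57.8 CPM on day 8, 59.5 on day 10 and 74.2 on day 12, and cluster 7 had 34.8 on day 7 and 36.2 on day 8. Clusters 0, 2, 4 and 6 had 6.52 to 15.1 CPM on day 7. Within clusters the day 12 to day 7 log2 ratio was 1.05 in cluster 2 and 1.59 in cluster 4. In cluster 6 it was -0.28, from 7.06 CPM in 73 cells on day 12. The ratio interval there, 0.066 to 2.11, included 1, so cluster 6 shows no direction. Cluster 9 had 32 cells on day 7, too few for a ratio. Magel2 was among the 10 leading genes of cluster 9 although it had no part in the clustering.

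Mest encodes a protein of the alpha/beta hydrolase fold and is paternally expressed. In chondrocyte-like cells it was at 569 CPM (561 to 577) on day 7, 501 on day 8, 283 on day 10 and 172 (166 to 177) on day 12. Day 12 was 3.31-fold below day 7. On day 10 a single cell gave 467 of the 985 Mest UMIs (47.4%), and without it the level was 151 CPM.

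Mest was split by cluster more than by day. Clusters 0 and 6, the latter led by Col19a1 and Ucma, had 868 and 840 CPM on day 7. Clusters 7 and 9 had 127 to 169.9 CPM on every day measured. Cluster 0 held 3 cells on day 12 and 3893 on day 7. Within clusters the day 12 to day 7 log2 ratio was -1.60 in cluster 2, -0.53 in cluster 4 and -0.21 in cluster 6, so only cluster 2 passed 1.5-fold. With the same 4 unnamed clusters added, which do not meet the marker rule of the class, the ratio was -0.54, no longer past it.

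Peg10 is a paternally expressed gene derived from a retrotransposon and known for its need in the placenta. It was at 55.7 CPM on day 7, 45.0 on day 8, 32.7 (27.0 to 39.3) on day 10 and 59.3 on day 12, with day 10 lowest and a day 12 to day 7 ratio of 1.06 (interval 0.993 to 1.14). Clusters differed in direction: in cluster 2 Peg10 was 21.1 CPM on day 12 and 43.3 on day 7 (ratio interval 0.319 to 0.722), while in cluster 6 it was 67.0 CPM on day 12 and 47.2 on day 7, with an interval that included 1. On day 10, 18.4% of its 114 UMIs came from 1 cell.

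**Figure D3:**
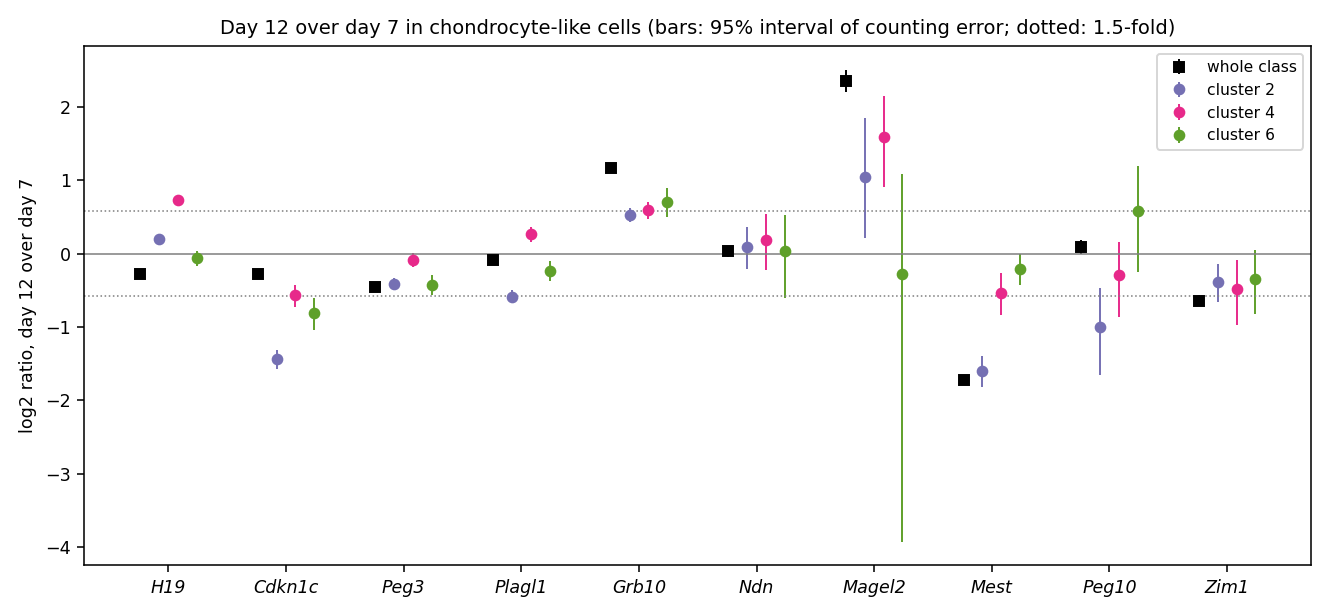
Log2 ratio of CPM on day 12 to day 7 (vertical axis, 1 UMI added) of each gene (horizontal axis) in the whole chondrocyte-like class (black squares) and in its clusters 2, 4 and 6 (coloured points); bars are 95% intervals of counting error and dotted lines mark 1.5-fold. The whole class lies at 2.35 for Magel2 and -1.73 for Mest, and Grb10 is above 0 and Cdkn1c below 0 in the class and in all 3 clusters.

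The same comparison in the other classes gave different genes. In fibroblast-like cells 8 of 10 genes were at least 1.5-fold lower on day 12 and none was higher, against 20.4% of all genes lower and 28% higher. Magel2, among the 8, rested on few UMIs, and its ratio interval included 1. Its 8.07 CPM on day 7 stood beside 5.74 CPM (2.62 to 10.9) in all blood classes, so it is read as background. Cdkn1c was at 153 CPM on day 12 and 766 on day 7, and Ndn at 121 CPM on day 12 and 258 on day 7. The class joins clusters 10 and 27, and cluster 27 held 129 of its 820 cells on day 12 and 8 of 139 on day 7. Within cluster 10 alone H19 was 1.29-fold and Peg3 1.42-fold lower, so their calls ended. Cdkn1c, Plagl1, Ndn, Mest and Peg10 stayed past the rule there. Magel2, at 1.78 CPM on day 12 and 8.58 on day 7, had fewer than the 20 UMIs needed in that cluster. Chondrocyte markers in that class summed to 9007 CPM on day 12 and 15741 on day 7, and dissociation-stress genes to 3064 and 9335 CPM; their part in the result was not tested.

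In tendon- or ligament-like cells 7 of the 9 genes with enough UMIs were lower on day 12, against 34.4% of all genes. H19 there was 2546 CPM on day 7, 2090.4 on day 8, 189.8 on day 10 and 124 on day 12. In all blood classes H19 was 360, 236, 95.8 and 221 CPM on days 7, 8, 10 and 12. The day 12 value was thus below blood and is read as background, as is Zim1 on day 12 (11.1 CPM, blood 14.8). The other lower genes were above blood on day 12. The tendon- or ligament-like class consisted mainly of cluster 1 on days 7 and 8 and of cluster 20 on days 10 and 12. Its chondrocyte markers summed to 49428, 31097, 5587 and 8589 CPM on those days, in the same order as H19 for all but the last pair of days. Their part in the result was not tested.

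Reticular stromal-like cells, named after a marrow type, were a single cluster led by Mmp10, Mmp13, Tnfsf11 and Cxcl12. Of its 10 markers, 1 had no UMI on day 7, and together they summed to 1593 CPM on day 7 and 3955 on day 12. Col10a1 was at 4931 CPM on day 10 and 2096 on day 12, against 5665 and 3787 CPM in chondrocyte-like cells. The name follows the marker rule, and whether these are marrow cells was not tested. Over all days the 7 genes of the hypertrophic list, Mmp13 and Col10a1 among them, summed to 28014 CPM in this cluster. Its Mest level was 576 CPM (519 to 637) on day 7, 1534 (1464 to 1606) on day 8, 3095 (3053 to 3137) on day 10 and 1127 (1107 to 1148) on day 12. All 4 intervals were apart, with day 10 highest and day 7 lowest. Grb10 and Mest were higher on day 12, against 35.3% of all genes, and Cdkn1c was lower, at 142 CPM on day 12 and 247 on day 7, against 18.6%. Magel2 passed the rule as lower only through the added UMI: it measured 2.65 CPM on day 12 and 3.07 on day 7, with an interval of the ratio of 0.217 to 7.48. Of its 27 UMIs on day 12, 17 were in 1 cell, and day 7 had 2 UMIs in all.

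In endothelial-like cells, Grb10 was higher on day 12 (32.5% of all genes were) and H19, Plagl1, Ndn and Zim1 of the 9 genes with enough UMIs were lower (19.1% of all genes). Plagl1 was at 120.4 CPM on day 12 and 309 on day 7, against 144 and 211 CPM in all blood classes. Zim1 was at 12.5 CPM on day 12 and 20.4 on day 7, against 14.8 and 27.4 CPM in blood. Plagl1 on day 12 and Zim1 on both days were thus not above blood and are read as background. H19 (269 CPM) and Ndn (21.8 CPM) were above blood on day 12, at 221 and 10.2 CPM. Zim1 and Ndn rested on 8 and 12 UMIs on day 7, and their ratio intervals included 1. Mest stayed high, at 846, 815, 1161 and 1098 CPM on days 7, 8, 10 and 12.

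Differences between cell classes could be tested, with the 4 libraries as replicates of each class. edgeR's quasi-likelihood test on 24 class sums, with library as a block, a Benjamini-Hochberg adjusted p of 0.05 over 15781 genes and a minimum of 2-fold, set each class against chondrocyte-like cells. All 10 genes passed the filter on low counts. The libraries are single samples of different ages. The block takes out library shifts common to all classes, so the spread left includes age differences that vary by class.

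Against chondrocyte-like cells, all 10 genes fell in monocyte- or macrophage-like cells, where 23.8% of all genes did. In endothelial-like cells 9 genes fell, against 17.6% of all genes, and 1, Mest, rose, against 17.0%. Fibroblast-like cells had 6 lower genes (11.8% of all genes), reticular stromal-like cells 5 lower (10.3%) and 1 higher (10.9%), and tendon- or ligament-like cells 3 lower (8.83%). The median log2 fold change of the 10 genes was -3.51 in monocyte- or macrophage-like, -2.97 in endothelial-like, -1.51 in reticular stromal-like, -1.18 in fibroblast-like and -0.94 in tendon- or ligament-like cells. Over all genes it lay between -0.13 and -0.01.

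**Figure D4:**
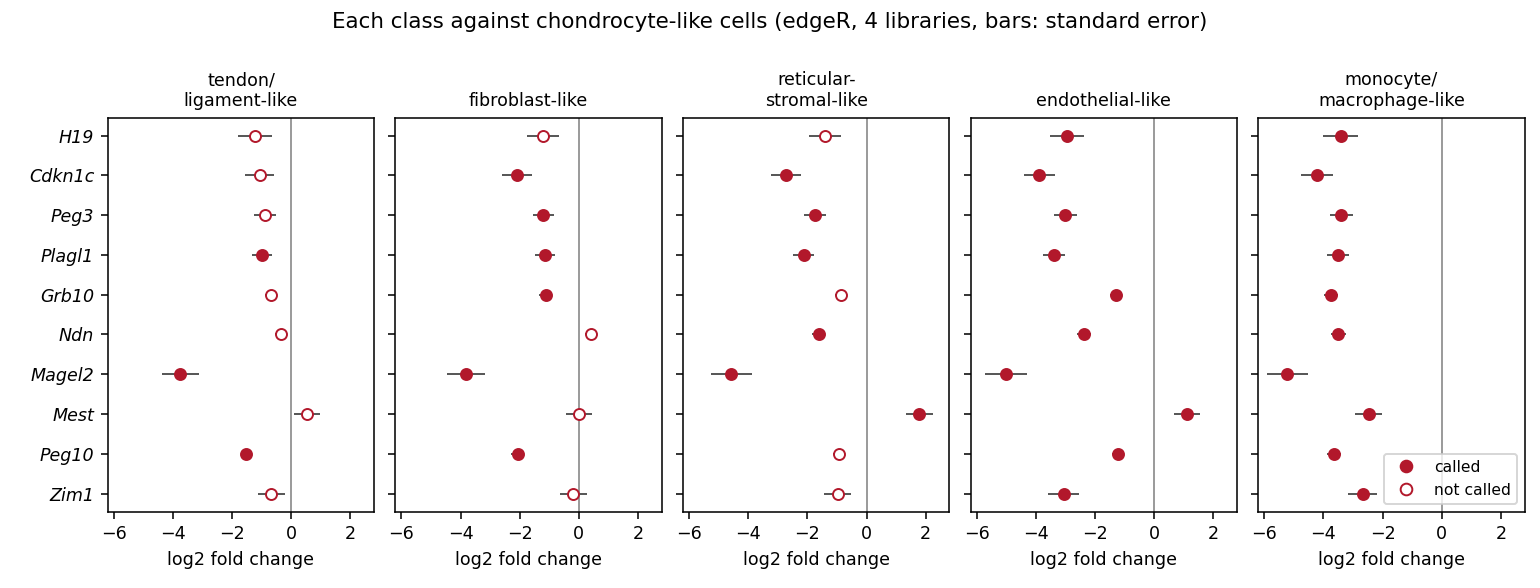
Log2 fold change of each gene (vertical axis) in 5 classes against chondrocyte-like cells from the edgeR fit over 4 libraries; points are estimates, bars their standard errors, and filled points passed both the adjusted p of 0.05 and 2-fold. Magel2 lies at -3.75 or lower in all 5 classes, and Mest is the gene with filled points to the right, at 1.79 in reticular stromal-like and 1.11 in endothelial-like cells.

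Magel2 had the widest gap. It measured 6.33, 4.54, 0.992 and 0.746 CPM in tendon- or ligament-like cells on days 7, 8, 10 and 12, and 8.07, 4.28, 1.73 and 3.22 CPM in fibroblast-like cells, against 13.6, 16.1, 50.5 and 69.2 CPM in chondrocyte-like cells. Every chondrocyte-like value was above every other. Its log2 fold change was -3.75 (SE 0.62, edgeR adjusted p = 9.45e-05) in tendon- or ligament-like and -3.82 (SE 0.64, edgeR adjusted p = 5.83e-05) in fibroblast-like cells. Endothelial-like cells had 0.761 to 2.72 CPM on days 8, 10 and 12; on day 7 they had 0 UMIs, a count compatible with up to 7.66 CPM.

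Cdkn1c followed the same direction with more spread. Fibroblast-like cells had 766, 871, 160.4 and 153 CPM on days 7, 8, 10 and 12, against 1242, 1359, 1666 and 1022 CPM in chondrocyte-like cells. The groups did not overlap, and the log2 fold change was -2.08 (SE 0.50, edgeR adjusted p = 0.002). In tendon- or ligament-like cells the values of 1476, 1498, 227 and 159.6 CPM overlapped those of chondrocyte-like cells, with -1.06 (SE 0.49, edgeR adjusted p = 0.101). Endothelial-like cells had 102, 162, 114 and 94.4 CPM on days 7, 8, 10 and 12, against 113, 119, 31.0 and 60.4 CPM in all blood classes. The intervals overlapped on day 7, and on the later days the endothelial-like value was above the blood value.

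Peg3 and Plagl1 fell in fibroblast-like cells by 1.20 (SE 0.36, edgeR adjusted p = 0.0101) and 1.16 (SE 0.34, edgeR adjusted p = 0.00928) on the log2 scale. Peg3 measured 1115, 915, 628 and 691 CPM there on days 7, 8, 10 and 12, and Plagl1 1077, 1108, 685 and 593 CPM. All lay below every chondrocyte-like value of the same gene. Plagl1 also passed the test in tendon- or ligament-like cells at -1.003 (edgeR adjusted p = 0.0278), but not without day 10 (-0.77, edgeR adjusted p = 0.0853) or day 12 (-0.78, edgeR adjusted p = 0.16), without the library block (-0.88, edgeR adjusted p = 0.136) or with cells of at least 2000 UMIs (-0.98, under 2-fold). Without day 10 its fibroblast call also ended, at -0.996, just under 2-fold.

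Ndn had its highest mean level among the named classes in fibroblast-like cells. It was above the chondrocyte-like level there on days 7, 8 and 12 and just below it on day 10. It measured 258, 200.3, 104 and 121 CPM in fibroblast-like cells on days 7, 8, 10 and 12, against 96.2, 101, 107 and 98.3 CPM in chondrocyte-like cells. The values overlapped, and the log2 fold change of 0.41 (SE 0.21) did not pass (edgeR adjusted p = 0.125). Ndn fell by 1.62 in reticular stromal-like cells (edgeR adjusted p = 7.55e-06) and by 2.37 in endothelial-like cells (edgeR adjusted p = 3.41e-08). Zim1 and Mest also had no lower mean log2 level in fibroblast- than in chondrocyte-like cells (6.61 and 6.60 for Zim1, 8.78 and 8.43 for Mest), with gaps under the SD over the libraries. Across named classes with all 4 libraries, the mean log2 level of Ndn ran from fibroblast- to chondrocyte-, tendon- or ligament-, reticular stromal-, endothelial- and monocyte- or macrophage-like cells. In that order the fibroblast- and chondrocyte-like levels differed by more than the SD over the libraries, though not by the test.

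Of the 6 classes in the fit, Mest had a lower mean level than in chondrocyte-like cells only in monocyte- or macrophage-like cells. The reticular stromal-like values of 576 to 3095 CPM stood against 172 to 569 CPM in chondrocyte-like cells, and the ranges did not overlap. Within the day 7 library, however, both classes were level, at 576 and 569 CPM with overlapping intervals. They were apart only on the later days. The log2 fold change was 1.79 (SE 0.46, edgeR adjusted p = 0.00429). Without the day 10 libraries it was 1.11 and did not pass (edgeR adjusted p = 0.116). The endothelial-like rise of 1.11 (SE 0.45, edgeR adjusted p = 0.042) did not pass without day 8 (1.30, edgeR adjusted p = 0.0795), without day 10 (0.93, edgeR adjusted p = 0.148) or without day 12 (0.67, edgeR adjusted p = 0.237). It also did not pass without the library block (0.96, edgeR adjusted p = 0.14) or, being under 2-fold, with no filter on low counts (0.98). In tendon- or ligament-like and fibroblast-like cells the differences of 0.53 and 0.01 did not pass.

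Of the remaining genes, Grb10 fell in fibroblast-like cells by 1.13 (SE 0.21, edgeR adjusted p = 0.000171), with 458, 402, 393 and 485 CPM on days 7, 8, 10 and 12. Without day 10 that difference was -0.94, under 2-fold (edgeR adjusted p = 0.00271). H19 did not pass in fibroblast-like (-1.21, edgeR adjusted p = 0.0833), reticular stromal-like (-1.41, edgeR adjusted p = 0.0534) or tendon- or ligament-like cells (-1.22, edgeR adjusted p = 0.105). The reticular stromal-like H19 value did pass without day 10, at -1.95 (edgeR adjusted p = 0.00747), as did Zim1 at -1.80 (edgeR adjusted p = 0.00645); with day 10, Zim1 had -0.98 (edgeR adjusted p = 0.116). Peg10 fell in fibroblast-like cells by 2.07 (edgeR adjusted p = 1.79e-07) and in tendon- or ligament-like cells by 1.51 (edgeR adjusted p = 7.55e-06). It measured 7.52 to 20.9 CPM in tendon- or ligament-like cells, against 32.7 to 59.3 CPM in chondrocyte-like cells. Peg3 in tendon- or ligament-like cells had -0.89 (edgeR adjusted p = 0.0627), and -1.20 (edgeR adjusted p = 0.0407) without day 7.

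Reads over overlapping genes limit a few of these values, since the strand of counting is not known here. Copg2, which overlaps Mest on the opposite strand, had 14978 UMIs beside 156947 for Mest. The antisense features over Cdkn1c (Gm44732) and over Ndn and Magel2 (Gm32061) had 322 and 314 UMIs, against 170033 for Cdkn1c, 20525 for Ndn and 3435 for Magel2.

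Levels were compared between dividing and other chondrocyte-like cells because Cdkn1c encodes a brake on division. Cells thinned to 1000 UMIs with at least 3 UMIs of an 18-gene division list numbered 81 on day 7, 66 on day 8 and 129 on day 12. Day 10 had 2 and was left out. They were set against cells with no such UMI in the same library. Peg3, Plagl1, Peg10 and Zim1, 4 of the 10 genes, were lower in dividing cells in all 3 libraries, as were 12.5% of 12668 genes, and Grb10 was higher in all 3, as were 31.2% of genes.

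Plagl1 measured 1048 CPM in dividing and 1553 CPM in other cells on day 7, 862 and 1386 on day 8, and 1104 and 1514 on day 12. Peg3 measured 1441 CPM in dividing and 1877 in other cells on day 7, 1146 and 1669.9 on day 8, and 1090.4 and 1426 on day 12. Peg10 rested on 11 and 8 UMIs and Zim1 on 32 and 35 UMIs in dividing cells on days 7 and 8. On both days their intervals overlapped those of other cells, and on day 12 they were apart. None of the 10 was at least 1.5-fold lower in all 3 libraries (1.43% of all genes were). Cdkn1c did not keep a direction: 1411 CPM in dividing and 1253 in other cells on day 7, 1179 and 1386 on day 8, and 531 and 1135 on day 12. With the gate raised to 5 UMIs, chosen after seeing the data, only 19, 17 and 76 dividing cells were left on days 7, 8 and 12. Cdkn1c was then lower in all 3 libraries (6.92% of all genes were) and Zim1 was not.

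Dividing and other cells came from the clusters in different shares. Cluster 4, led by histone genes, gave 48.1% of dividing cells and 17.9% of other cells on day 7, and 69.7% and 30.2% on day 8. On day 12 all dividing cells were in cluster 9, as were 77.0% of the other cells. The part of clusters in these differences was not tested. A separate unnamed cluster led by Mybl1, Spc25 and Prc1 held most of the dividing cells of days 7, 8 and 10. With it added, dividing cells numbered 445, 714, 60 and 239 on days 7, 8, 10 and 12. Its chondrocyte markers summed to 75848, 52484, 15421 and 36559 CPM on those days. With it added, after seeing the data, 7 genes were lower in dividing cells in all 4 libraries, Cdkn1c, Ndn and Magel2 joining the 4, as were 18.7% of all genes. Grb10 then lost its direction, with log2 ratios of 0.15, -0.06, -0.87 and -0.10 on days 7, 8, 10 and 12. Mest moved too: its log2 ratios became -0.15, 0.52, 1.12 and 1.41 on those days. In the named class alone they were -1.10, -1.15 and 0.23 on days 7, 8 and 12. With the 2 dividing cells of day 10 added to the named class, Grb10 was at -0.50 on that day, so it was not higher in every library. The 4 lower genes had ratios below 0 in all 4 libraries (6.3% of all genes). However, these 2 cells held 0 UMIs of Peg10 and 1 of Zim1, too few to show a direction for either gene.

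**Figure D5:**
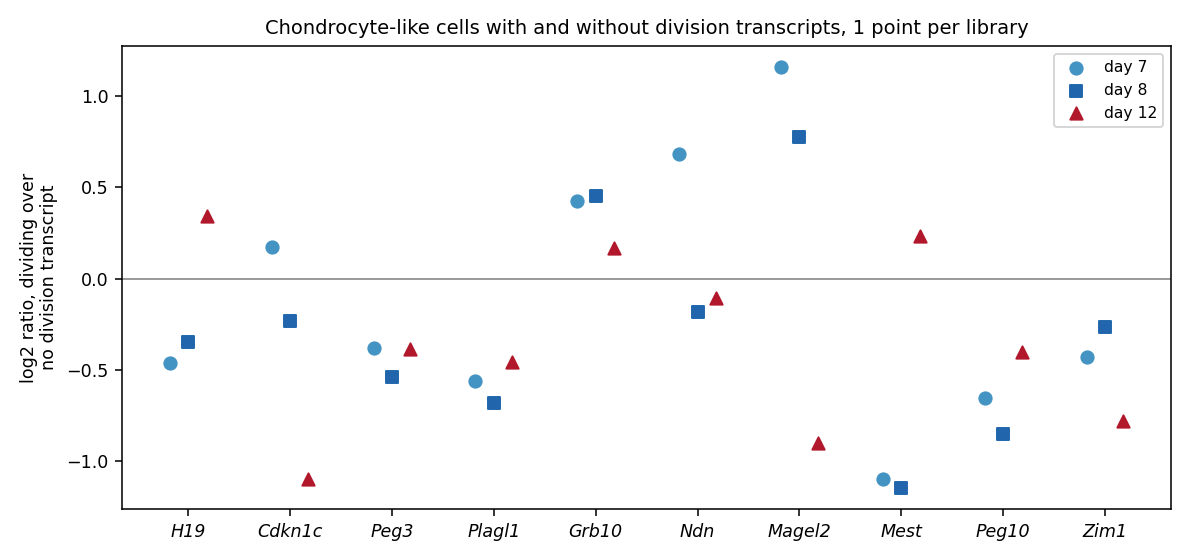
Log2 ratio of CPM in dividing over other chondrocyte-like cells (vertical axis, 1 UMI added) of each gene (horizontal axis), with 1 point per library of days 7, 8 and 12. Peg3, Plagl1, Peg10 and Zim1 lie below 0 in all 3 libraries and Grb10 above 0, while Cdkn1c lies at 0.17, -0.23 and -1.10 on days 7, 8 and 12.

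The genes around these pathways were counted from lists, in chondrocyte-like cells of day 12 against day 7. Of 33 other imprinted genes with enough UMIs, 5 were at least 1.5-fold higher and 17 lower, with a median log2 ratio of -0.62; the shares of all genes were 30.1% higher and 31.4% lower, and their median 0.07. Slc38a4, an amino acid transporter, had the highest day 12 to day 7 ratio of the list, with 150 CPM on day 12 and 29.5 on day 7. Rtl1, of the Dlk1 cluster, had the lowest ratio, with 0.812 CPM on day 12 and 29.8 on day 7.

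Of 22 genes of insulin and IGF signalling, the pathway on which Grb10 acts, 12 were higher and 2 lower, against the same 30.1% and 31.4% of all genes. Grb14, a relative of Grb10 with the same kind of receptor binding, had 33.4, 34.9, 125 and 171 CPM on days 7, 8, 10 and 12, and Irs1, the receptor's docking protein, 114, 144, 193 and 319 CPM. Igf2r, an imprinted receptor that clears IGF2, was 171 CPM on day 12 and 305 on day 7. Of 17 genes of the Cip/Kip and G1 group around Cdkn1c, 9 were higher and 2 lower, against 30.1% and 31.4% of all genes: Cdk6 had 254 CPM on day 12 and 59.9 on day 7, and Ccnd2 81.3 CPM on day 12 and 229 on day 7.

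Of 14 genes of the MAGE partner, WASH and retromer list, 4 were higher, a share near the 30.1% of all genes, and none was lower, against 31.4%. Among the 4, Usp7 had 87.5 CPM on day 12 and 43.9 on day 7, and Vps35, a retromer subunit, 104 and 57.4 CPM. Beside these, the prehypertrophic list had 6 of 6 genes higher, the division list 18 of 18 higher, the resting list 6 of 8 lower and the dissociation-stress list 13 of 14 lower. The shift in cluster make-up and in stress genes moved with all of them, and their part was not tested.

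Across 55 class and library sums of 19 classes, which share libraries and depth, Peg3 and Plagl1 had the most alike levels of any pair of the 10 (Pearson r = 0.97 of log2(CPM + 1)). Cdkn1c followed with r = 0.96 to each of them, and Zim1 with r = 0.95 to each. Outside the 10, the genes nearest to Peg3 were Nrk (r = 0.96) and Capn6 (0.96), to Plagl1 Rtl3 (0.97) and Nrk (0.97), and to Cdkn1c Usp29 (0.94). Ndn and Magel2, the chromosomal neighbours whose start regions are printed above, had r = 0.62. Nearest to Ndn was another MAGE gene, Maged2 (0.94), followed by Auts2 (0.93) and Sh3d19 (0.92). Magel2 was most like Wscd2 (0.85), the cartilage matrix link protein gene Hapln1 (0.85) and Car12 (0.84). For Grb10 they were Obsl1 (0.96), Wwtr1 (0.95) and Serpinh1 (0.95), for Mest Mcc (0.88), Foxd2os (0.87) and Robo1 (0.87), and for Peg10 Lmo7 (0.89), Fkbp10 (0.89) and Kank1 (0.88). The least alike pair was Magel2 and Mest (r = 0.40).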

How the data were processed

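Gene by cell tables of raw UMI counts were used as deposited, 1 library per day; per the labels' protocols they came from MobiDrop 3′ libraries, and per the submitters' processing notes the build was GRCm39. Neither header nor label names the counting program or annotation. Library totals ranged from 44218720 to 169323978 UMIs. Kept cells had 500 genes or more, 1000 UMIs or more and no more than 15% of UMIs from mitochondrial genes. Clusters came from 2000 variable genes, 40 components, 20 neighbours and Leiden resolution 1 (scanpy 1.11.5), with the 10 genes, other imprinted genes, hemoglobin, mitochondrial, ribosomal and sex-linked genes left out. A cluster took a class name when at least 50% and at least 3 of the fixed markers of the class were at least 2-fold above other clusters, a rule set after seeing the data. Doublets were left in; an alternative removed the 6% of cells per library with the most simulated pairs among 50 neighbours. UMIs were summed per class and library for at least 50 cells. Class contrasts used edgeR 4.0.16 in R 4.3.3 with TMM and filterByExpr, tested on simulated data; DESeq2 1.42.0 was an alternative. The genes and lists were chosen with earlier results of these data known. All 10 genes are named; other names are the 3 most alike genes of each (mean of at least 10 CPM) and at most the 2 highest and 2 lowest ratios of a list. Intervals cover counting error only. The p-values rest on the spread of class differences between libraries that is left after the library block, shared over all classes of the fit.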

Additional observations from a re-analysis of the deposited data

Results flagged for a closer look

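Magel2 had day 12 to day 7 values of opposite sign in different classes. The log2 ratio was 2.35 in chondrocyte-like cells and -1.59 in fibroblast-like cells, 3.94 apart, and -0.75 in reticular stromal-like cells, 3.09 apart. Both low values rest on few UMIs (26 on day 12 and 4 on day 7 in fibroblast-like cells, 27 and 2 in reticular stromal-like cells) and have ratio intervals that include 1. The reticular stromal-like value comes from the added UMI, since the levels there were 2.65 CPM on day 12 and 3.07 on day 7, and it shows no opposite difference. The differences were not tested.

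Mest was higher on day 12 in reticular stromal-like cells (log2 ratio 0.97) and lower in 3 other classes. The gap was 2.69 to chondrocyte-like cells (-1.73), 1.97 to fibroblast-like cells (-0.999) and 4.16 to tendon- or ligament-like cells (-3.19), not tested because each day is 1 library.

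Cluster 18, left without a name and led by Gria1, Vit and Cilp, held 562 cells on day 10 and 2124 on day 12. It entered no comparison between classes, and the day comparison only as 1 of 4 unnamed clusters added in an alternative. In 3 genes its level was above every named class of the same day with intervals apart. H19 was 2287 CPM in cluster 18 on day 12, against 1884 in chondrocyte-like cells, and Plagl1 was 1493 CPM, against 1440.3. Zim1 was 138.0 CPM in cluster 18 on day 10, against 86.2 in reticular stromal-like cells, and 145.5 CPM on day 12, against 106 in fibroblast-like cells. Intervals did not overlap in these 4 pairs, and blood cells of the same day had 221, 144, 6.49 and 14.8 CPM in the order given. Peg3 was also above the highest named class, with overlapping intervals: 1437 CPM in cluster 18 on day 10, against 1416 in chondrocyte-like cells, and 1387 CPM on day 12, against 1365.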

How the results depend on the processing

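The count of 4 genes past 1.5-fold between day 12 and day 7 stayed within 1.5 times in all 14 alternatives (3 to 6, the highest with cells gated one by one). The genes counted were not always the same. Within cluster 2 alone, Cdkn1c (log2 ratio -1.44), Plagl1 (-0.59) and Peg10 passed the rule as lower, beside Magel2 and Mest. Grb10 (0.52) and Zim1 (-0.39) did not pass it there. Which genes pass thus depended on the cluster make-up of the class. Single ratios moved beyond counting error in 80 of 130 values, none of the 4 called ones changing sign. Magel2 ranged from 0.78 to 2.72, Grb10 from 0.52, under 1.5-fold within cluster 2 alone, to 1.20, Mest from -1.91 to -0.54 and Zim1 from -1.04 to -0.26. Among the class tests 574 of 600 single values kept their call, 14 gained one and 12 lost it; with no filter on low counts, tendon- or ligament-like cells had 5 lower genes in place of 3. With 1 library left out, counts were 9 to 10 in endothelial-like, 4 to 6 in fibroblast-like, 10 in each case in monocyte- or macrophage-like, 6 to 7 in reticular stromal-like and 2 to 4 in tendon- or ligament-like cells. The count of genes lower in dividing cells became 7 when the unnamed dividing cluster was added. It stayed at 4 with a gate of 5 UMIs, with Cdkn1c in place of Zim1. With day 10 added it was also 4, but the 2 dividing cells of that day show no direction for Peg10 or Zim1. Leaving hemoglobin out of the totals moved 0 of 240 levels beyond the spread (at most 1.47%). Alternatives on shared barcodes, the top cell of each gene, clusters of at least 40 cells and division were chosen after seeing the data. No paired analysis between days was possible because each day has 1 library, so the days share a single replicate number. The class tests did compare classes within libraries, through the library block. Day 10 is limited in the number of chondrocyte-like cells (128), not in their depth (median 23364 UMIs).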
